A study of Mus musculus with 14 samples.

Results

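The genes described here encode mitochondrial uncoupling proteins (Ucp2 and Ucp3) and acyl-CoA thioesterases (Acot1, Acot2, Acot7, Acot9, Acot11 and Acot13). Their members were all regions whose deposited gene list names one of these 8 genes. That gave 118 of the 145601 regions in the 3 deposited tables, for 8 of the 17063 gene symbols named there. The data are chromatin immunoprecipitation sequencing (ChIP-seq) profiles of H3K9ac and H3K9Bu, an acetyl and a butyryl group on lysine 9 of histone H3, in heart tissue of male C57BL/6J mice aged 12 weeks. Fat supplied 0, 10 or 60% of the energy in the diets, which the mice received during 4 days before sham surgery or transverse aortic constriction (TAC), which narrows the aorta and loads the left ventricle with pressure. They stayed on the same diet for 1 more week before the hearts were taken. All groups share the strain, sex and age, and each group is 1 library from a pool of 3, so that no difference below has a replicate check and no test was made. The comparisons address both marks under each diet, with and without TAC. The 8 genes were chosen by name with their average signals in these same libraries already known, so their values are given as a description.

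Uncoupling proteins are carriers of the inner mitochondrial membrane. Ucp3 is found mainly in skeletal muscle, heart and brown fat, and Ucp2 is found in many tissues, with high levels in immune cells. Thioesterases split acyl-CoA into a free fatty acid and coenzyme A, and so act on the same pool of activated fatty acids that mitochondria oxidise. Acot1 works in the cytosol and Acot2 in the mitochondrial matrix, both on long acyl chains. Acot7 is a mainly cytosolic long-chain enzyme that is abundant in brain, and Acot9 is mitochondrial. Acot11 carries a lipid-binding START domain, and Acot13 associates with mitochondria. Ucp3, Acot1 and Acot2 are known target genes of the fatty acid receptor PPARα. H3K9ac marks active promoters and enhancers, and H3K9Bu places a longer acyl chain on the same residue.

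Upstream sequences are shown for the starts at which the largest or most divergent values below were found. They are the 250 bases before the annotated start from RefSeq (GRCm38.p6), written 5′ to 3′ on the gene's strand, for 4 of the 7 genes matched in that table. Capitals mark AGGTCA, a nuclear receptor half-site, and GGGCGG, a GC box, on either strand.
Ucp3 (chr7:100472741-100472990, + strand): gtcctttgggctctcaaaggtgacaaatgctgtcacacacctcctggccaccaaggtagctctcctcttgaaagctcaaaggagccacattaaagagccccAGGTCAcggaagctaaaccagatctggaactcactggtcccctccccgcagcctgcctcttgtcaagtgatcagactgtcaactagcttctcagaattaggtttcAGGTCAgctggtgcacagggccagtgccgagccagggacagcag
Ucp2 (chr7:100493108-100493357, + strand): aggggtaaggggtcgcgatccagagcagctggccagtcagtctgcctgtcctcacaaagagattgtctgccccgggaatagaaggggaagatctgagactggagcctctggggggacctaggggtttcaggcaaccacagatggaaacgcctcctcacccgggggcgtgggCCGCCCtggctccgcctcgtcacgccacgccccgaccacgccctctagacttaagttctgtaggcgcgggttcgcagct
Acot11, start named in the deposited tables (chr4:106799832-106800081, − strand): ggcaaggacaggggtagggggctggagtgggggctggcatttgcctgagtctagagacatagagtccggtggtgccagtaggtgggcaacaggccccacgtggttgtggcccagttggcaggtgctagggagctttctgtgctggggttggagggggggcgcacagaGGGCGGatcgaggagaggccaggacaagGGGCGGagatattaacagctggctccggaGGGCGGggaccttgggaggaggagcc
Acot11, upstream start (chr4:106805008-106805257, − strand): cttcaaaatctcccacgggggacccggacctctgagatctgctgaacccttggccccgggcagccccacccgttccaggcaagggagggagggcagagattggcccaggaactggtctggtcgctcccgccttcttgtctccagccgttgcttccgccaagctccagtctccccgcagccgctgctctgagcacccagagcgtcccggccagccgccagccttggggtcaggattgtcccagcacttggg
Acot7, start within the gene (chr4:152185358-152185607, + strand): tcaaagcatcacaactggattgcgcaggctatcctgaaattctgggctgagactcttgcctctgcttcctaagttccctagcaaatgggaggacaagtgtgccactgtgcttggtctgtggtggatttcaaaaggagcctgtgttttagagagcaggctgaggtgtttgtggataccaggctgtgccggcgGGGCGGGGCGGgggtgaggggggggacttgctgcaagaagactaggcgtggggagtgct
The Ucp3 window held AGGTCA 2 times, at -149 to -144 and at -44 to -39 from the start. AGGTCA was found in 14.0% of the 32817 windows of this length. None of the other member windows held it. GGGCGG was found at least 1 time in 32.7% of windows. It had 3 matches at the named Acot11 start, 2 overlapping ones at the internal Acot7 start, 1 in Ucp2 and none in Ucp3. Ucp3 had the fewest CpG dinucleotides of the printed windows, 3, where the median window has 6, and Ucp2 had 16. In the deposited tables the promoter regions of Ucp3 and Acot11 held no CpG island, and those of the other 6 genes did.

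Values are the authors' average signal, the mean tag density over a region, and were compared only between libraries of the same table. Ratios are log2 ratios of signals plus a pseudocount of 1, given relative to the median over all promoter regions of that pair of libraries, with exact (Clopper-Pearson) 95% intervals from estimated tags that cover counting error only. A promoter region lies between 7500 bp upstream and 2500 bp downstream of a start, a gene's promoter is its strongest such region, and differences of at least 1.5-fold (0.58 on the log2 scale) are counted. Estimated tags per library ran from 2543841 to 9163220. The H3K9Bu sham library at 10% fat stands apart: 21352 of its 41348 called regions were called in no other library of the table, and its median promoter signal was 36.8 against 17.1 to 22.0 in the other H3K9Bu libraries at 10 and 60% fat. Relative to promoters, distal regions were at a median of 0.53 in TAC against sham at 10% fat and of 0.75 in 60% against 10% fat after sham, both of which have that library as denominator. All 8 cardiomyocyte marker genes had a promoter region at 0% fat and in the H3K9ac table, and 7 did in the H3K9Bu table. Of 6 adipocyte markers, Adipoq, Lep and Ucp1 had none in any table. In tissue, fewer cells of a type and less mark per cell cannot be told apart.

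The 8 promoters covered a wide range of signal. Ucp2 was highest for H3K9ac in all 6 H3K9ac libraries, with 98.7 (sham) and 103 (TAC) at 0% fat, 111 and 101 at 10% fat, and 102 and 116 at 60% fat. Those values lie between the 96.7 and 99.6 percentiles of promoter regions. Among the thioesterases, Acot2 had H3K9ac of 67.5 to 89.3 and Acot13 of 70.0 to 88.9 over the same libraries. Acot9 had 48.6 to 89.6, and was above both in the TAC library at 0% fat and below both in the other 5. Acot1 had 31.4 to 45.4, Acot7 had 32.9 to 50.3 and Acot11 had 30.0 to 49.2. The Acot13 region is shared with the start of the neighbouring gene Tdp2, and the Acot2 region with LOC101055670. Acot1 and Acot2 are near-identical neighbours, and how reads that fit both were placed is not given in the sources used here.

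**Figure D1:**
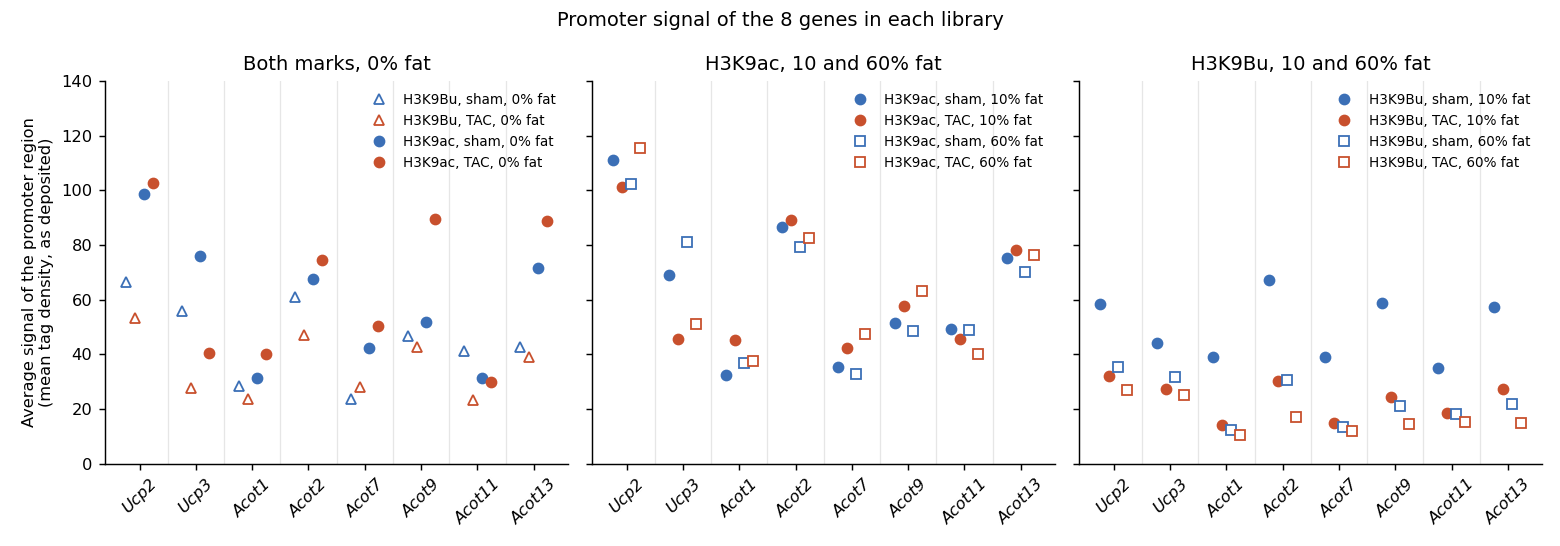
Average signal (mean tag density as deposited, y axis) at the promoter region of each of the 8 genes (x axis), 1 point per library, in the 3 tables. Ucp2 is highest for H3K9ac in every library, both Ucp3 sham points stand above both Ucp3 TAC points in the H3K9ac panel, and the filled blue points of the H3K9Bu panel (sham, 10% fat) are the highest of each gene.

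Ucp3 had the largest difference between TAC and sham of the 8 promoters for H3K9ac at each diet. Its H3K9ac signal was 76.0 in sham and 40.4 in TAC hearts at 0% fat, 68.9 and 45.5 at 10% fat, and 81.0 and 51.1 at 60% fat. Within each table, every sham library was above every TAC library. Relative to all promoters, the log2 ratio was -1.11 (-1.31 to -0.94) at 0%, -0.65 (-0.80 to -0.52) at 10% and -0.81 (-0.96 to -0.70) at 60% fat. The regions were chr7:100472460-100474533 at 0% fat and chr7:100472352-100475862 at the other diets, and both contain the window printed above with the 2 AGGTCA matches. In rank, the promoter went from the 91.3 percentile of promoter regions (sham) to the 48.3 (TAC) at 0% fat, from 82.2 to 54.6 at 10% and from 94.1 to 58.1 at 60% fat. The ratio at 60% fat was lower than that at 10% fat by -0.17, with a counting interval of -0.35 to 0.02.

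The lower H3K9ac after TAC at 0% fat extended beyond the start. All 7 Ucp3 regions in that table had less H3K9ac in TAC than in sham. The region centred at -944 bp had 29.1 in sham and 6.00 in TAC (-2.31, -3.38 to -1.71), and the one at 2218 bp had 41.6 and 21.7 (-1.12, -1.51 to -0.80). The broad region at -7909 bp, which reaches the neighbouring genes C2cd3 and Gm10603 in the deposited gene lists, had 55.9 and 33.9 (-0.91, -1.11 to -0.76). Of the 7, the region at -1748 bp was the only one under 1.5-fold (-0.52), with an interval that spans 0. At the other diets the upstream region, centred at -7559 bp, differed less. It had 53.6 and 46.5 at 10% fat (-0.26, -0.44 to -0.08), and 56.0 and 54.3 at 60% fat (-0.20, -0.38 to -0.04).

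H3K9Bu at Ucp3 was also lower after TAC at 0% fat. The start region had 55.7 in sham and 27.7 in TAC (-0.91, -1.16 to -0.72), and all 7 regions had less signal in TAC. In the same pair, cardiomyocyte markers were at a median of -0.47 for H3K9Bu. Of these, 3 of 8 were at least 1.5-fold lower, where 1.22% of all genes were, and 1, Nppb, was higher (1.75). Macrophage markers were at a median of 0.73. Of these, 4 of 6 measured were at least 1.5-fold higher, where 2.37% of all genes were, and 2 were below 0 (lowest Cd68, -0.10). Their part in the Ucp3 values was not tested. At 10 and 60% fat the strongest H3K9Bu region was the upstream one at -7865 bp, where TAC against sham was 0.20 (0.02 to 0.41) and 0.02 (-0.19 to 0.24). The region that spans the start (chr7:100471683-100474523) had 39.4 in sham and 23.0 in TAC at 10% fat, and 35.4 and 23.0 at 60% fat. As deposited, both pairs are lower in TAC. Relative to all promoters the ratios were 0.11 (-0.10 to 0.33) and -0.25 (-0.47 to -0.04), where the median promoter ratio as deposited was -0.86 and -0.35.

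**Figure D2:**
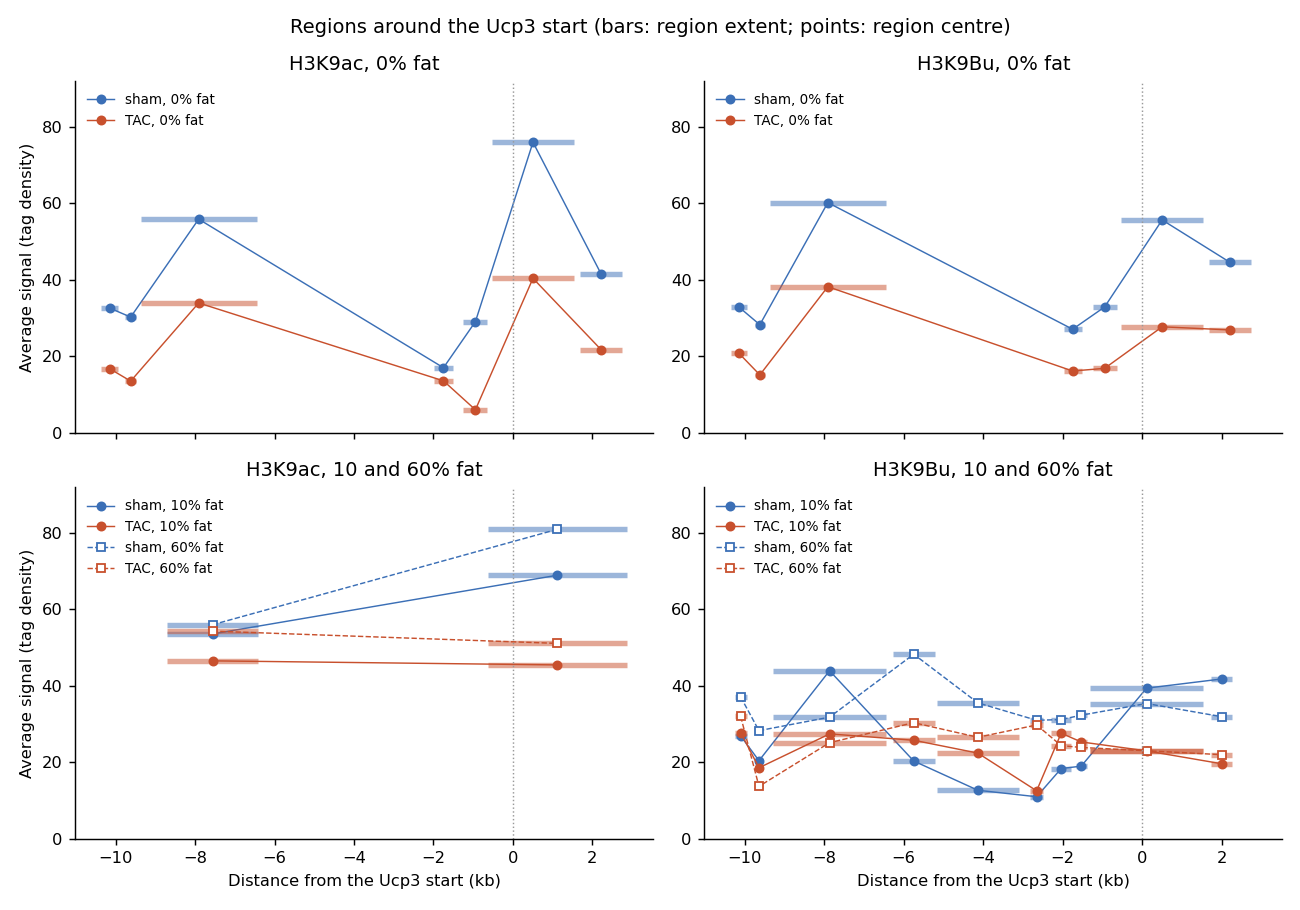
Average signal (y axis) of the Ucp3 regions against the distance of their centre from the Ucp3 start in kb (x axis); bars give each region's extent, points its centre, and thin lines join the points of 1 library. At 0% fat (upper panels) all 7 regions are lower in TAC (orange) than in sham (blue) for both marks, and in the H3K9Bu panel at 10 and 60% fat the sham library at 60% fat (open blue) is above the one at 10% fat (filled blue) in the 5 regions between the broad upstream region and the start.

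Ucp2, whose start lies downstream of Ucp3 on the same strand, showed small differences. For H3K9ac, TAC against sham was -0.15 (-0.26 to -0.06) at 0%, -0.19 (-0.29 to -0.10) at 10% and 0.01 (-0.08 to 0.11) at 60% fat. H3K9Bu signals were 66.4 in sham and 53.3 in TAC at 0% fat (-0.24, -0.37 to -0.11), 58.5 and 32.2 at 10% fat (0.02, -0.17 to 0.23), and 35.2 and 27.0 at 60% fat (-0.02, -0.25 to 0.22). None of these 6 ratios reached 1.5-fold. The broad Ucp2 promoter region (chr7:100492251-100495862 at 0% fat) also names Ucp3 and Dnajb13 in its gene list.

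At 0% fat, Acot9 had the largest H3K9ac difference of the 6 thioesterase promoters. This X-linked gene had 51.7 in sham and 89.6 in TAC there (0.57, 0.31 to 0.85), just under 1.5-fold after centring. It had 51.6 and 57.5 at 10% fat (0.10, -0.15 to 0.34), and 48.6 and 63.0 at 60% fat (0.21, -0.04 to 0.45). TAC was higher than sham as deposited at each diet, and the interval excluded 0 at 0% fat only. The difference between diets was not tested. H3K9Bu at Acot9 stood at -0.05, -0.37 and -0.18 in the same order, all with intervals that span 0.

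The paralogues Acot1 and Acot2 differed in their values. Acot1 had H3K9ac of 31.4 in sham and 40.1 in TAC at 0% fat, 32.5 and 45.4 at 10% fat, and 36.6 and 37.5 at 60% fat. The ratio was 0.13 (-0.22 to 0.50), 0.41 (0.11 to 0.74) and -0.13 (-0.45 to 0.19). Between the 60 and 10% diets the ratio differed by -0.54 (-0.98 to -0.10 by counting error). Acot2 stood near 0 for H3K9ac, at -0.08, -0.02 and -0.10. For H3K9Bu, Acot2 was lower in TAC at each diet: 60.8 and 47.1 at 0% fat (-0.29, -0.46 to -0.13), 67.0 and 30.0 at 10% fat (-0.27, -0.49 to -0.04), and 30.5 and 17.0 at 60% fat (-0.46, -0.79 to -0.17). None of these reached 1.5-fold, and the medians over all genes for H3K9Bu were 0.00, -0.13 and -0.04 at 0, 10 and 60% fat.

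Acot13 was also near 0 for H3K9ac in TAC against sham, at 0.10 (-0.03 to 0.23), -0.01 (-0.12 to 0.11) and -0.04 (-0.16 to 0.08) at 0, 10 and 60% fat. Its H3K9Bu ratios were -0.06, -0.18 and -0.19, with intervals that span 0.

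**Figure D3:**
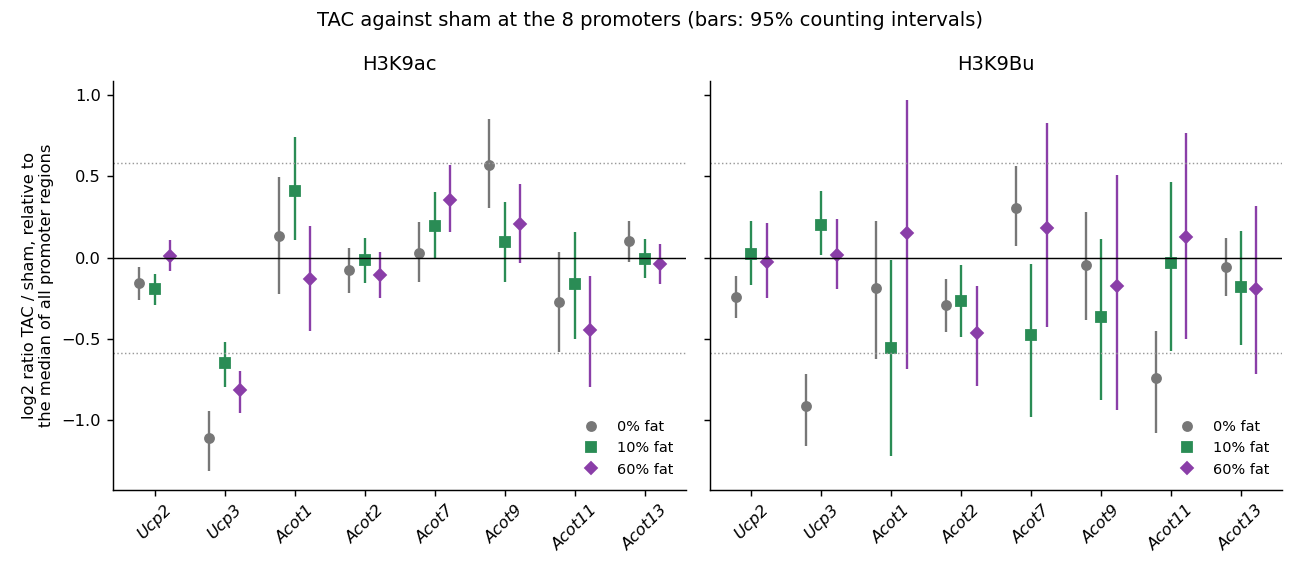
The log2 ratio of TAC to sham signal relative to the median of all promoter regions (y axis) at the 8 promoters (x axis), for H3K9ac (left) and H3K9Bu (right) at 3 diets; vertical bars are 95% counting intervals and dotted lines mark 1.5-fold. Ucp3 is past the lower dotted line at all 3 diets for H3K9ac and at 0% fat for H3K9Bu, and Acot11 is past it for H3K9Bu at 0% fat.

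Acot11 and Acot7 each have an alternative start in RefSeq with a region in or next to it that is separate from the one at the named start. The region at the named Acot11 start had 31.2 in sham and 30.0 in TAC at 0% fat (-0.27, -0.58 to 0.04), 49.2 and 45.7 at 10% fat (-0.16, -0.50 to 0.16), and 48.9 and 40.0 at 60% fat (-0.44, -0.80 to -0.11). The upstream start, in a region centred at -5144 bp, had 19.9 in sham and 40.5 in TAC at 0% fat (0.78, 0.45 to 1.19), 22.1 and 26.3 at 10% fat (0.18, -0.18 to 0.57), and 24.2 and 37.9 at 60% fat (0.47, 0.15 to 0.83). At each diet the upstream start was higher in TAC than in sham, and the region taken for the named start was lower. At 10 and 60% fat that region lies just inside the gene. There, the next region upstream, centred at -265 bp, had H3K9ac ratios above 0, at 0.23 and 0.22. The difference between these ratios was -0.02 (-1.05 to 1.02 by counting error). The region at 1113 bp, inside the gene, was lower in TAC at 0% fat in both marks, at -0.91 (-1.76 to -0.12) for H3K9ac and -0.95 (-1.84 to -0.20) for H3K9Bu. H3K9Bu at the named start was 41.2 in sham and 23.1 in TAC at 0% fat (-0.74, -1.08 to -0.45), and at the upstream start it was 23.7 and 24.8 (0.13, -0.25 to 0.53). The H3K9Bu regions of Acot11 at 10 and 60% fat held few tags, and each promoter region there was called in 1 library only.

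At Acot7, the first start (chr4:152177307-152179676 at 0% fat) had H3K9ac of 42.4 in sham and 50.3 in TAC at 0% fat (0.03, -0.15 to 0.22), 35.5 and 42.4 at 10% fat (0.19, -0.003 to 0.40), and 32.9 and 47.5 at 60% fat (0.35, 0.16 to 0.57). The region at the internal start, which begins just downstream of that start at 0% fat (centred at 8201 bp) and contains it at the other diets (8161 bp), had 37.8 and 52.2 at 0% fat (0.24, -0.01 to 0.51), 26.0 and 34.1 at 10% fat (0.32, 0.11 to 0.56), and 28.5 and 51.6 at 60% fat (0.67, 0.49 to 0.89). TAC was the higher of each pair as deposited at both starts, and the counting intervals of the 2 starts overlapped at each diet. At 60% fat the TAC library also had more signal than sham as deposited in the next regions downstream, with 19.8 in sham and 29.3 in TAC at 12197 bp (0.38, -0.14 to 0.95) and 16.8 and 27.7 at 13056 bp (0.53, 0.12 to 1.01). The last regions of the list, from 94166 bp on, also lie at the start of Gpr153 and count as promoter regions of that gene.

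**Figure D4:**
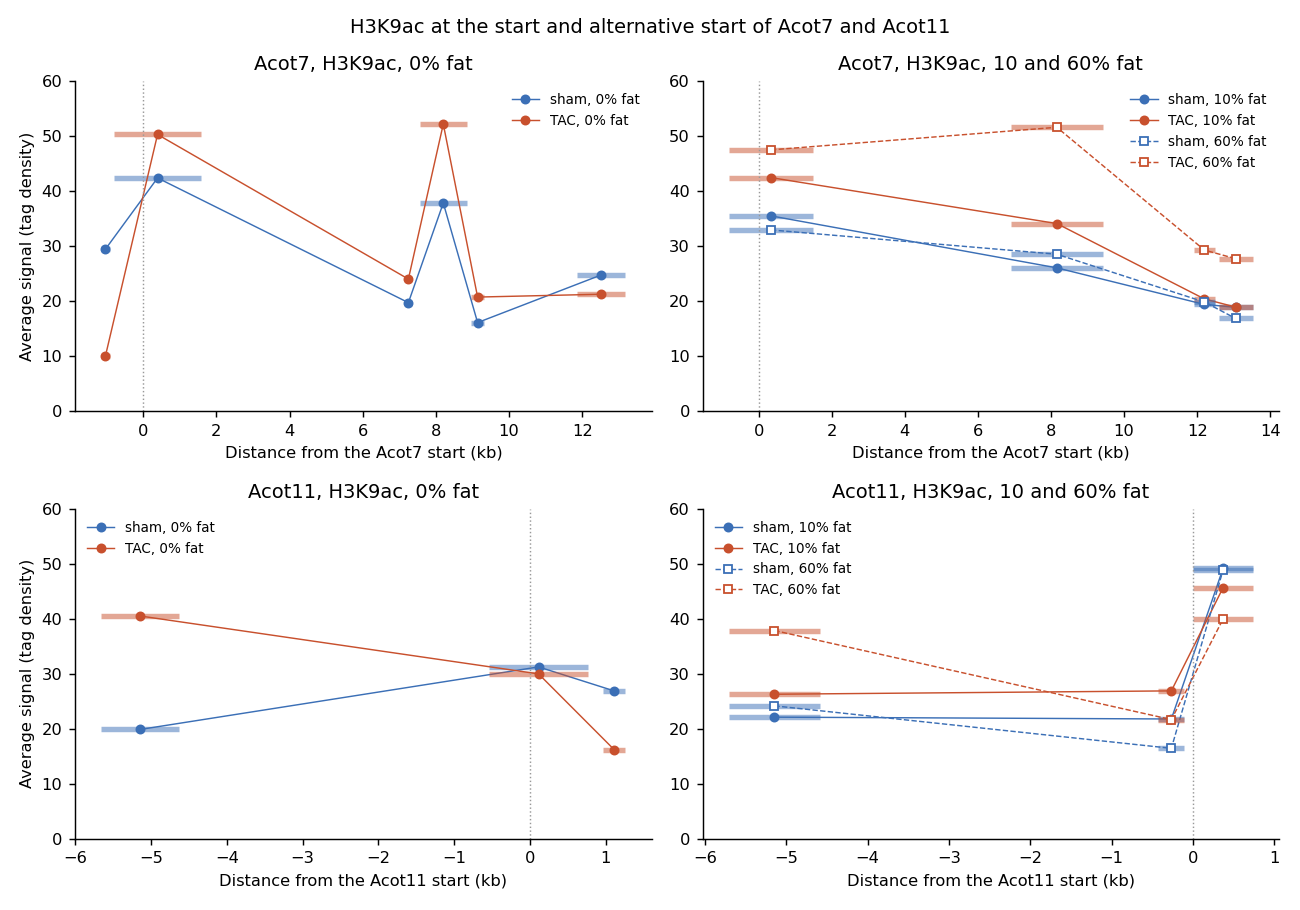
H3K9ac average signal (y axis) of the regions near the starts of Acot7 (upper panels) and Acot11 (lower panels) against distance from the named start in kb (x axis), at 0% fat (left) and at 10 and 60% fat (right); bars give each region's extent and thin lines join the points of 1 library. The TAC points are above the sham points of the same diet at the internal Acot7 start and at the upstream Acot11 start.

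Counted over all member regions above the filter on low signal (33, 24 and 48 of the 37, 28 and 53 in the 0% fat, H3K9ac and H3K9Bu tables), TAC and sham were at least 1.5-fold apart in 11, 3 and 4 regions for H3K9ac at 0, 10 and 60% fat, and in 12, 25 and 5 for H3K9Bu. For H3K9ac at 0% fat, 1 of 21 promoter regions was at least 1.5-fold higher, where 6.19% of all promoter regions were, and 6 were lower, where 11.5% were. The 6 are 4 Ucp3 regions, the Acot11 region at 1113 bp and an Acot7 region at the start of Gpr153. Of 12 distal regions, 1 was higher against 9.81% of all distal regions, and 3 were lower against 25.8%. Without centring, 2 promoter regions were higher and 6 lower, and 2 distal regions were higher and 2 lower. At 10% fat, none of 14 promoter regions was higher (1.34% of all) and 1, the Ucp3 start, was lower (1.72%), while 0 of 10 distal regions were higher (2.07%) and 2 lower (7.26%). At 60% fat, none of 14 promoter regions was higher (3.23%) and 1, again the Ucp3 start, was lower (4.25%). There, 1 of 10 distal regions was higher (5.12%), the internal Acot7 start, and 2 were lower (12.7%). Without centring, the split at 60% fat was 1 higher and 1 lower among promoter regions and 2 higher and 0 lower among distal ones.

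For H3K9Bu at 0% fat, 1 of 21 promoter regions was higher (3.72% of all) and 6 were lower (3.57%), of which 4 belong to Ucp3 and 2 to Acot11. Of 12 distal regions, 3 were higher (6.54%) and 2 lower (14.3%). Without centring, these were 1 and 8 promoter regions, and 3 and 3 distal regions. In the pair at 10% fat that includes the library that stands apart, 8 of 24 promoter regions were higher (22.1%) and 0 lower (3.22%), and 17 of 24 distal regions were higher (47.5%) and 0 lower (2.11%). Without centring, 2 promoter regions were higher and 15 lower, and 5 distal regions were higher and 5 lower, so that the direction of this count rests on the scaling. After a lowess trend, 5 promoter regions were higher and 2 lower, and 7 distal regions were higher and 0 lower. At 60% fat, 1 of 24 promoter regions was higher (4.69%) and 0 lower (2.9%), and 3 of 24 distal regions were higher (7.46%) and 1 lower (4.93%). Without centring, none was higher, and 3 promoter and 5 distal regions were lower.

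Between the 60 and 10% fat diets, H3K9ac at the 8 promoters differed little. In sham hearts Ucp3 had the highest ratio, with 68.9 at 10% and 81.0 at 60% fat (0.29, 0.18 to 0.41), and the other promoters with a ratio above 0 were Acot1 (0.23, -0.10 to 0.57) and Acot11 (0.05, -0.27 to 0.38). After TAC, Ucp3 was at 0.12 (-0.03 to 0.27) and Ucp2 at 0.14 (0.05 to 0.24), while Acot1 was at -0.32 (-0.63 to -0.02). The internal Acot7 start had 34.1 at 10% and 51.6 at 60% fat after TAC (0.54, 0.36 to 0.74), and 26.0 and 28.5 after sham (0.19, -0.04 to 0.43). The upstream Acot11 start had 26.3 and 37.9 after TAC (0.46, 0.15 to 0.81), and 22.1 and 24.2 after sham (0.18, -0.20 to 0.57). Of 14 promoter regions, 1 was at least 1.5-fold higher in sham (1.84% of all) and 0 lower (1.13%), and after TAC 0 were higher (1.31%) and 0 lower (1.25%). Of 10 distal regions, 0 were higher (4.02%) and 0 lower (3.56%) in sham, and 1 was higher (3.72%) and 1 lower (4.11%) after TAC. Without centring, the same counts came out except for 1 lower distal region in sham.

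H3K9Bu at some of the regions upstream of Ucp3 was higher at 60 than at 10% fat in sham hearts. In 5 neighbouring regions with centres from -5747 to -1532 bp, the sham library at 10% fat had 20.3, 12.7, 11.0, 18.4 and 19.0. The sham library at 60% fat had 48.3, 35.6, 31.0, 31.2 and 32.3 in the same regions. As deposited, 60% fat was the higher library in each, although the median promoter was lower there by -0.89. The relative log2 ratios were 2.10 (1.81 to 2.53), 2.31 (2.10 to 2.73), 2.30 (1.56 to 3.39), 1.62 (1.09 to 2.27) and 1.63 (0.90 to 2.49). After TAC, the first 3 of these had 25.8, 22.4 and 12.6 at 10% fat and 30.4, 26.6 and 29.8 at 60% fat (0.56, 0.57 and 1.52). The other two, at -2036 and -1532 bp, had 27.6 and 25.3 at 10% fat and 24.4 and 23.9 at 60% fat after TAC, lower at 60% fat as deposited, with relative ratios of 0.16 and 0.25 whose intervals span 0. The start region of Ucp3 had 39.4 at 10% and 35.4 at 60% fat in sham (0.74, 0.58 to 0.95), and 23.0 in both TAC libraries (0.34, 0.11 to 0.59). The 5 regions were all called in the sham library at 60% fat, and none of them was called in that at 10% fat. The calls come from the same signals and lend no support. The broad region at -7865 bp, called in all 4 libraries, had 44.0 at 10% and 31.8 at 60% fat in sham (0.44, 0.27 to 0.64). The region at 2004 bp had 41.8 and 31.9. Further upstream, those at -10102 and -9642 bp had 26.9 and 20.4 at 10% fat, and 37.1 and 28.3 at 60% fat. These ratios after sham share the denominator library that stands apart, and its part in them was not tested.

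Of the other promoters, all 6 thioesterases were below 0 in that pair relative to all promoters. Over all genes, 8266 of 12023 were below 0 there, with a median of -0.18. Acot1 had 39.0 at 10% and 12.1 at 60% fat (-0.72, -1.41 to -0.15), Acot7 had 39.0 and 13.4 (-0.59, -1.15 to -0.16), and Acot9 had 58.8 and 21.1 (-0.54, -1.10 to -0.05). The direction at Acot1 and Acot7 rests on the region taken. Acot1 was at 0.061 in the region nearest its start, and Acot7 was at 0.75 as the mean over its promoter regions, of which the one at 1311 bp had 10.0 and 24.2 (2.09, 1.22 to 3.17). Acot13 was at -0.46 (-0.86 to -0.10), and the intervals of Acot2 (-0.22) and Acot11 (-0.03) span 0, as does that of Ucp2 at 0.17 (-0.01 to 0.38). As deposited, all 8 promoters were lower at 60% fat. Of 18 distal Acot7 regions, the 17 above the filter on low signal had ratios above 0 in sham. The one under it, at 34952 bp, was at -0.25 (-0.93 to 0.38). The median over all distal regions was 0.75. The highest was at 23933 bp with 11.7 at 10% and 35.5 at 60% fat (2.42, 1.53 to 3.68). Like several of the others, it was called in the sham library at 60% fat only. Such regions are present through the library with the higher signal. In all, 9 of 24 promoter regions were higher in sham (25.5% of all) and 3 lower (7.25%), and 19 of 24 distal regions were higher (55.7%) and 0 lower (1.89%). Without centring, 6 promoter regions were higher and 12 lower, and 10 distal regions were higher and 3 lower. After a lowess trend, 9 and 4 promoter and 11 and 0 distal regions were. After TAC, 1 promoter region was higher (8.98%) and 0 lower (4.29%), and 4 distal regions were higher (19.2%) and 0 lower (2.8%). Without centring, these were 1 and 4 promoter regions, and 1 and 2 distal regions.

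**Figure D5:**
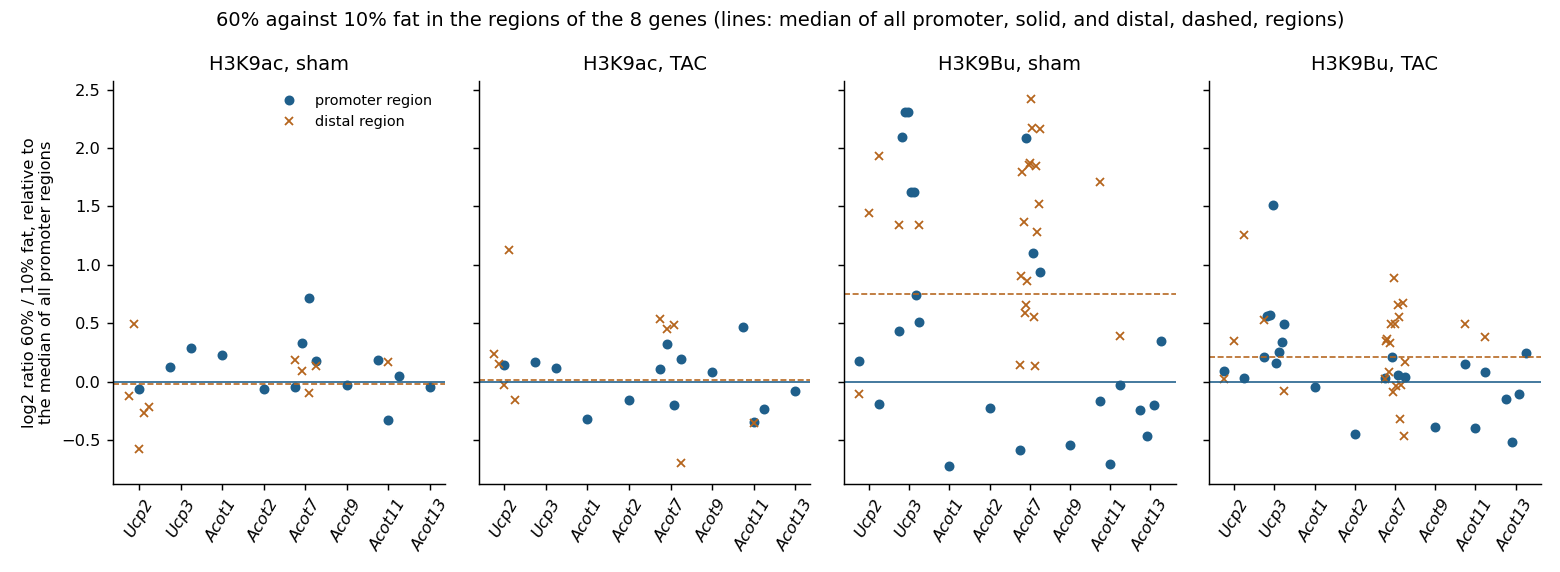
The log2 ratio of 60% to 10% fat relative to the median of all promoter regions (y axis) for every member region above the filter, by gene (x axis), in 4 panels by mark and surgery; circles are promoter and crosses distal regions, the solid line is the median of all promoter regions and the dashed line that of all distal regions. In the H3K9Bu sham panel the Ucp3 circles reach 2.31 and the Acot7 crosses 2.42, and the dashed line is at 0.75.

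At 0% fat both marks stand in 1 table, and H3K9Bu could be set against H3K9ac. Among the promoters, Acot11 leaned most to H3K9Bu in sham, with H3K9Bu of 41.2 and H3K9ac of 31.2 (0.95, 0.69 to 1.26), and had 23.1 and 30.0 after TAC (0.48, 0.14 to 0.81). Ucp2 had 66.4 and 98.7 in sham (-0.01, -0.11 to 0.11), and Acot7 had 23.6 and 42.4 (-0.26, -0.50 to -0.04). The highest ratios of all member regions in sham were in Acot13, where regions at 5274, 6003 and 6935 bp had H3K9Bu of 41.6, 36.4 and 37.0 and H3K9ac of 18.3, 14.4 and 8.22 (1.70, 1.83 and 2.60). All 12 distal regions above the filter were above 0 in sham. The Acot7 region at 96731 bp, which lies at the start of Gpr153, had 18.8 and 32.3 (-0.19, -0.59 to 0.16). Of 21 promoter regions, 11 were higher for H3K9Bu in sham (17.3% of all) and 0 lower (6.73%), and 11 were higher after TAC (17.4%) and 0 lower (1.25%). Of 12 distal regions, 10 were higher in sham (70.9%) and 0 lower (1.45%), and 11 were higher after TAC (79.3%) and 0 lower (0.183%). Without centring, 4 promoter regions were higher and 3 lower in sham and 5 and 8 after TAC, and 3 and 4 distal regions were higher and 0 lower. After a lowess trend, 11 promoter and 10 distal regions in sham, and 9 and 10 after TAC, were higher and 0 lower. The antibodies differ between the marks, so that a ratio says how a region compares with other regions and not how much of each mark it holds.

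Related genes were described by the lists given under processing. Of 21 PPAR targets and fatty acid oxidation genes, 17 of 21 measured were below 0 for H3K9ac in TAC against sham at 0% fat (median -0.27), 15 of 20 at 10% fat (-0.13) and 17 of 20 at 60% fat (-0.28). The medians over all genes were 0.04, 0.00 and 0.00, with 5951 of 13650, 6870 of 13943 and 6821 of 13943 below 0. Angptl4, a lipase inhibitor, was the lowest of the list at 0% fat (-0.71) and the highest at 60% fat (0.14). For H3K9Bu the counts below 0 were 21 of 21 (-0.25), 17 of 20 (-0.19) and 18 of 20 (-0.16). Over all genes they were 6719 of 13650 (0.00), 8072 of 12023 (-0.13) and 6669 of 12023 (-0.04). The other thioesterases had medians for H3K9ac of 0.22 at 0% fat, with 4 of 4 measured above 0 and Acot4 highest at 0.53, -0.08 at 10% fat and 0.01 at 60% fat. The other mitochondrial carriers had medians of 0.10, -0.16 and -0.07, with Slc25a20, the carnitine carrier, lowest at 0% fat (-0.50). The acyl-CoA synthetases, which make the substrates of thioesterases, had medians of 0.02, 0.09 and -0.12.

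The ratios of cell type markers in TAC against sham varied by list and by diet. For H3K9ac, the median over macrophage markers was 0.76 at 0% fat, -0.05 at 10% and 0.34 at 60% fat. At 0% fat, 4 of 6 measured were at least 1.5-fold higher, where 5.42% of all genes were, and 2 were below 0. Their summed promoter signal was 222 in sham and 365 in TAC at 0% fat, 307 and 310 at 10% fat, and 237 and 323 at 60% fat. Adgre1 had no promoter region in any table. Cardiomyocyte markers had medians of -0.23, -0.29 and -0.40, with Nppb, the natriuretic peptide gene induced by load, highest at 1.57, 1.15 and 1.37. Their summed signals in sham and TAC were 509 and 537, 531 and 481, and 469 and 404. Fibroblast markers were at 0.20, -0.08 and 0.06, endothelial markers at -0.40, 0.04 and 0.09, adipocyte markers at -0.22, -0.16 and -0.29 with 2 of 6 measured, and skeletal muscle markers at 0.26, 0.13 and 0.04 with 2 of 5 measured and no promoter region for Myh1 and Myh4. The part of these in the values of the 8 genes was not tested.

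Across the 12 libraries, after removing each library's promoter median and each gene's mean per table, Ucp3 and Acot11 had the widest spread of the 8 promoters. The Ucp3 values do not come from the same region throughout. In the H3K9Bu table its strongest region was the upstream one, centred at -7865 bp, and in the other tables the one over the start. The Ucp3 profile and its correlations therefore join both regions. The profile most like that of Ucp3, among 1524 genes with enough signal and spread, was that of Cyp2d22 (Pearson r 0.89), followed by Cd300lg (0.84), 1700084E18Rik and Lrrc8a, which share a region (0.82), and Lims2 (0.81). For Acot11, with 3604 candidates, they were Ezh1 (0.91), Gatsl3 (0.90), Neat1 (0.87), and E230001N04Rik and LOC100862287, which share a region (0.87). The median r over the candidates was -0.12 and -0.07. These are descriptions over 12 libraries that share tables and depth, with the strongest of many genes chosen.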

How the data were processed

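H3K9ac and H3K9Bu ChIP-seq libraries from mouse hearts, 12 in all and 1 per group, were compared. Another 2 libraries of pooled input DNA had no column and were not used here. Per the submitters' processing notes, BWA was the aligner, mm10 the build and SICER the caller of enriched regions. How tags were filtered, how libraries were scaled, whether inputs were subtracted and which versions were run are not given in the sources used here. In each of 3 deposited tables the authors merged the regions of 4 libraries. For each library the authors deposited a signal, the average and the peak tag density within a region, per the file headers. The authors also deposited log2 ratios of pairs of average signals. The remaining columns used hold region positions and annotation, 0 or 1 for presence in a library, and an estimated tag number per pair of libraries. The average signal times region length is proportional to that number (224 per tag) in 483776 of 483776 cells, which gave estimated tags per library. These were rounded to whole tags for the intervals.

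From these, log2 ratios were computed with a pseudocount of 1 and centred on the median of promoter regions above the 25th percentile of mean signal in the table. The tables' own promoter count matched the window used in 145240 of 145601 regions. The members and gene lists were chosen with earlier results of these data known, so counts over them describe and support nothing. Named genes are the 8 members, the highest or lowest of each list, and the 5 profiles most like those of the 2 members with the widest spread. Of these, 1 listed gene is not reported here. Gene lists held 21 PPAR target and oxidation genes, 11 other thioesterases, 9 other carriers, 9 acyl-CoA synthetases and markers of 6 cell types. Alternatives were no centring, lowess (fraction 0.3), the class median, the mean over promoter regions, regions called in both libraries, no filter, the peak signal and a pseudocount of 5. The region centred nearest the start was added after seeing the data. Ratios and intervals were tested on simulated data. Python 3.11.15, numpy 2.4.6, scipy 1.17.1, pandas 2.3.3 and statsmodels 0.14.6 were used.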

Additional observations from a re-analysis of the deposited data

Results flagged for a closer look

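At the Ucp3 promoter, H3K9Bu in TAC against sham stood at -0.91 (-1.16 to -0.72) at 0% fat and at 0.20 (0.02 to 0.41) at 10% fat. The counting intervals lie on opposite sides of 0, which flagged the pair. The strongest region was the one over the start at 0% fat and the one centred at -7865 bp at 10% fat. At the region over the start, the ratio at 10% fat was 0.11 (-0.10 to 0.33), and as deposited the signals were 39.4 in sham and 23.0 in TAC. The difference between diets was not tested.

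At the Acot7 promoter, H3K9Bu in TAC against sham stood at 0.30 (0.07 to 0.57) at 0% fat and at -0.48 (-0.98 to -0.04) at 10% fat, again with intervals on opposite sides of 0. The second value rests on 142 estimated tags in sham and 54 in TAC. The regions differ: chr4:152177307-152179676 at 0% fat and the shorter chr4:152177291-152178104 at 10% fat. Another region within the 0% fat span, centred at 1311 bp, stood at 1.67 at 10% fat. It had 10.0 in sham and 18.2 in TAC and was called in neither library of that pair. The values at 10% fat for Ucp3 and Acot7 use the H3K9Bu sham library that stands apart, and its part in them was not tested.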

How the results depend on the processing

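No paired analysis was possible because each group holds 1 library. For the same reason no replicate could be left out. Of the 12 counts of member regions past 1.5-fold (11, 3 and 4 for H3K9ac in TAC against sham at 0, 10 and 60% fat, 12, 25 and 5 for H3K9Bu, 1 and 2 for H3K9ac in 60% against 10% fat after sham and TAC, 31 and 5 for H3K9Bu, and 21 and 22 for H3K9Bu against H3K9ac), most moved when only regions called in both libraries were kept: to 4, 1, 2, 3, 3 and 1 in TAC against sham, to 1 for H3K9ac in 60% against 10% fat after TAC, to 6 and 0 for H3K9Bu, and to 9 and 6 between marks. Fewer regions are counted there, 10 to 19 in place of 24 to 48. Without centring, the count was 8 for H3K9Bu in TAC against sham at 60% fat, 2 for H3K9ac in 60% against 10% fat after sham, 8 for H3K9Bu after TAC, and 10 between marks in sham. Lowess gave 14 for H3K9Bu in TAC against sham at 10% fat and 2 for H3K9ac in 60% against 10% fat after sham. Centring each class on its own median gave 12 and 13 between marks. Peak signal gave 2 for H3K9ac in 60% against 10% fat after sham and 14 for H3K9Bu after TAC. A pseudocount of 5 gave 2 for H3K9Bu in TAC against sham at 60% fat and 3 in 60% against 10% fat after TAC. No filter gave 3 and 4 for H3K9ac in 60% against 10% fat after sham and TAC. The cause of these moves was not tested. The median difference between the 60 and 10% fat TAC ratios over the 8 promoters was -0.06 for H3K9ac and 0.07 for H3K9Bu. It ran from -0.065 (lowess) to 0.044 (no centring) for H3K9ac. For H3K9Bu it ran from -0.18 (regions called in both libraries, 3 promoters) to 0.59 (no centring). The sign of both turned with the setting. A single promoter's difference had a median counting error of ± 0.24 for H3K9ac and ± 0.67 for H3K9Bu. No counting error was computed for the medians over promoters.

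Of 8 promoter ratios past 1.5-fold, 68 of 70 alternatives had the same direction and 55 were still past it. The 2 that turned are H3K9Bu in 60% against 10% fat after sham. Acot1 (-0.72) was at 0.061 in the region nearest the start, which lies under the filter on low signal. Acot7 (-0.59) was at 0.75 as the mean over its promoter regions. H3K9Bu regions at 10 and 60% fat hold the fewest tags, such as 25 to 93 at Acot1, and differences there were not detectable below the widths given.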
